A study of Mus musculus with 12 samples.

Results

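A set of 9 genes that mark brain endothelium and its barrier was followed through 12 mouse brain libraries. They are Cldn5, Cdh5, Pecam1, Tek, Flt1, Vwf, Emcn, Slco1a4 and Abcb1a, found by matching listed symbols to the Ensembl identifiers of the count files, which made 9 of 41388 genes. All 9 had counts in all 12 libraries, between 155 and 7346 reads per gene and library, and all 9 passed the filter on low counts in every comparison.

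Endothelial cells line the blood vessels, and those of the brain form the blood-brain barrier. They seal the gaps between neighbouring cells with claudin-based tight junctions and pump lipophilic compounds back into the blood through ATP-driven exporters. Astrocytes wrap these vessels with their endfeet and, with pericytes, supply signals such as VEGF, angiopoietin-1 and Wnt ligands that endothelial receptors read.

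The mouse line was Bmal fl/fl; ALDH1L1-CreERT2 on a C57BL\6 background. Bmal1, official symbol Arntl, encodes a core activator of the circadian clock, and the inducible Cre is driven by a gene active in astrocytes, so endothelial cells were not the targeted cells. Tamoxifen was gavaged to all animals, with and without Cre, at an age of 2 months (2 mg daily, 5 days), and the brains were collected 7 months after birth. Collagenase-digested brains were passed over magnetic beads against ACSA-2, an astrocyte surface epitope. The retained cells are called astrocytes here and the cells that passed through are called flowthrough. Astrocytes came from 5 Cre-positive animals (astrocyte knockout, aKO: 203, 205, 208, 221 and 222) and from 3 Cre-negative animals (wild type, WT: 201, 202 and 265). Flowthrough came from aKO animals 203 and 205 and from WT animals 201 and 202, so 4 animals gave both fractions. Titles of the flowthrough libraries also carry a letter b of unstated meaning, which cannot be told apart from the fraction. The title of astrocyte library 202 says WT while its genotype field says knockout. Here it counts as WT, and the members' comparison of aKO with WT astrocytes is also given without it and with it counted as aKO.

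Each astrocyte library held between 21816637 and 62655238 reads in genes, and each flowthrough library between 33019572 and 53868165. Arntl itself lay at 5.91 to 17.5 CPM in aKO astrocytes and at 2.23 to 7.52 CPM in WT astrocytes, on the scale described next. The 7.52 CPM came from library 202, and WT 201 and 265 had 2.99 and 2.23 CPM. Its reads were summed over the whole gene, so they do not check the deletion. Astrocyte libraries aKO 222 and WT 265 stood apart from the other 6. Their oligodendrocyte markers summed to 3423 and 3229 CPM of the deposited totals, against 9078 to 21512 CPM in the other 6. Astrocyte markers summed to 4922 and 3183 CPM on that scale, against 6488 to 15148 CPM. The Xist transcript of the inactive X chromosome had 2044 and 972 reads in aKO 221 and aKO 222 against at most 46 in the other 10 libraries. Levels between libraries are given as TMM-scaled CPM, counts per 1000000 reads after scaling all 12 libraries together for composition. Levels between genes are given as the deposited RPKM, which also divides by gene length.

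In the mouse genome (GRCm38), none of the members overlaps another annotated gene. Cldn5 lies on chromosome 16 from 18776847 to 18778260, Cdh5 on chromosome 8 from 104101625 to 104144502 and Pecam1 on chromosome 11 from 106654217 to 106750628. Tek lies on chromosome 4 from 94739289 to 94874976, Flt1 on chromosome 5 from 147561604 to 147726011 and Vwf on chromosome 6 from 125546774 to 125686679. Emcn lies on chromosome 3 from 137341067 to 137432185, Slco1a4 on chromosome 6 from 141805440 to 141856199 and Abcb1a on chromosome 5 from 8660077 to 8748575. Counts cover their exons, from 1414 exonic bases in the single exon of Cldn5 to 16064 in the 56 exon blocks of Vwf.

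Promoter sequence is shown for 4 members that varied in 2 sets, described further on: Cldn5 and Flt1 of the first set and Tek and Slco1a4 of the second. Each is the 250 bases before the gene's start in RefSeq (GRCm38.p6), read 5′ to 3′ along the gene's strand. They are chr16:18776597-18776846 on the plus strand, chr5:147726012-147726261 on the minus strand, chr4:94739039-94739288 on the plus strand and chr6:141856221-141856470 on the minus strand. Capitals mark GGAA or its reverse complement TTCC, the core letters bound by ETS factors, a family known for endothelial gene control.
Cldn5: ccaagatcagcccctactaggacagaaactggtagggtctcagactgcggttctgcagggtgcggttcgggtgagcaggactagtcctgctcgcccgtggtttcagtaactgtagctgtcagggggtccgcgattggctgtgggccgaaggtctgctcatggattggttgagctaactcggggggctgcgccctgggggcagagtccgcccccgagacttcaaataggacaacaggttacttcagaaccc
Flt1: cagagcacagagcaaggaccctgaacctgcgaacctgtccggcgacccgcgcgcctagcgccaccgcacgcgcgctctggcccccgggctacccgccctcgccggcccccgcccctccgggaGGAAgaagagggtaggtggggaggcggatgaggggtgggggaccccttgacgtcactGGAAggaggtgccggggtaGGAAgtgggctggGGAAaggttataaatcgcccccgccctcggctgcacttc
Tek: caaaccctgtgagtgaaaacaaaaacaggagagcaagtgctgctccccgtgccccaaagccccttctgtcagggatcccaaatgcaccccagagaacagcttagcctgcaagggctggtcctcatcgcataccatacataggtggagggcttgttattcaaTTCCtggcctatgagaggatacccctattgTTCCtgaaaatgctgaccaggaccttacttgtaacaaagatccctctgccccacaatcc
Slco1a4: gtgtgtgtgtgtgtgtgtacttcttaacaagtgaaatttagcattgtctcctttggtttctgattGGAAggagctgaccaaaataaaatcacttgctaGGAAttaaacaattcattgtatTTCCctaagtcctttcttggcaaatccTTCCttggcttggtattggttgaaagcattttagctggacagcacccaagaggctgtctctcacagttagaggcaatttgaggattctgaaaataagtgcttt
These letters occurred 0 times before Cldn5, 4 times before Flt1, 2 times before Tek and 4 times before Slco1a4, and 93.4% of 32851 promoter windows of this length hold them at least at 1 place. The E-box CACGTG, the letters that the BMAL1 and CLOCK pair binds, was searched on both strands and was in none of the 4 windows, nor in those of Emcn and Abcb1a, while 6.02% of all windows hold it. The RefSeq start of Abcb1a lies 92986 bases from the start in the files' annotation. Vwf, Pecam1 and Cdh5 are named only.

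Per unit of length, the transporter Slco1a4 and the claudin Cldn5 stood highest. Slco1a4, which encodes an organic anion carrier of brain capillaries, averaged 24.8 ± 9.65 RPKM in astrocytes (SD, n = 8) and 14.5 ± 5.79 RPKM in flowthrough (SD, n = 4). Cldn5, the main claudin of the barrier's tight junctions, averaged 17.4 ± 13.1 RPKM in astrocytes and 12.5 ± 2.01 RPKM in flowthrough. Slco1a4 was the highest member in 8 of the 12 libraries and Cldn5 in the other 4. In astrocytes the order went on with Flt1 at 8.60, Emcn at 7.19, Abcb1a at 7.18 and Pecam1 at 6.25 RPKM. Those 4 were not separated by their spread: Flt1 lay above Emcn in 4 of 8 libraries, Emcn above Abcb1a in 3 and Abcb1a above Pecam1 in 4. Pecam1 lay above Tek in all 8, and Tek at 4.00, Vwf at 3.48 and Cdh5 at 3.23 RPKM closed the order. Flowthrough kept Slco1a4, Cldn5, Flt1, Emcn, Abcb1a and Pecam1 in the same first 6 places by mean, but there Cdh5 at 2.99 RPKM lay above Vwf at 2.19 and Tek at 2.17 RPKM.

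Among the junction genes, Cldn5 spread most over the astrocyte libraries. It stood at 10.1, 30.1, 15.6, 52.5 and 33.9 TMM-scaled CPM in aKO astrocytes 203, 205, 208, 221 and 222, against 8.51, 9.41 and 19.99 CPM in WT astrocytes 201, 202 and 265. Flowthrough had 23.6 and 25.6 CPM in aKO 203 and 205, against 15.1 and 16.5 CPM in WT 201 and 202. The 3 aKO astrocyte libraries 205, 221 and 222 lay above every WT one, while 203 and 208 lay within the WT range. Cdh5, the VE-cadherin of endothelial adherens junctions, kept a narrower range of 7.99 to 18.0 CPM in aKO astrocytes and 5.34 to 15.2 CPM in WT astrocytes. Pecam1, the adhesion molecule CD31, ran from 26.6 to 53.1 CPM in aKO astrocytes and from 20.7 to 42.1 CPM in WT astrocytes. For Cdh5 and Pecam1 the genotype ranges overlapped.

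The receptors Flt1 and Tek read VEGF and angiopoietin. Flt1, VEGF receptor 1, stood at 67.7, 106, 111, 80.2 and 134 TMM-scaled CPM in aKO astrocytes 203, 205, 208, 221 and 222, against 72.6, 50.04 and 126 CPM in WT astrocytes 201, 202 and 265. WT 202 lay below all 5 aKO libraries and WT 265 above 4 of them. Tek, the angiopoietin receptor TIE2, ran from 15.2 to 25.6 CPM in aKO astrocytes and from 10.8 to 17.7 CPM in WT astrocytes. In flowthrough Tek had 13.9 and 7.47 CPM in aKO 203 and 205, against 8.51 and 14.8 CPM in WT 201 and 202, so each genotype held a high and a low library.

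Vwf, which encodes the clotting factor that endothelial cells store, ran from 33.4 to 99.0 TMM-scaled CPM in aKO astrocytes and from 27.5 to 46.9 CPM in WT astrocytes. Its 2 highest libraries were aKO 222 and aKO 205, at 99.0 and 76.6 CPM. Emcn, a sialomucin of the endothelial surface best known from veins and capillaries, had a highest over lowest ratio of 11.6 over the 12 libraries, the largest of the members, while among astrocytes alone its ratio of 5.85 lay under the 6.16 of Cldn5. It stood at 31.4, 29.4, 59.5, 39.8 and 46.2 CPM in aKO astrocytes 203, 205, 208, 221 and 222, against 45.5, 28.3 and 10.2 CPM in WT astrocytes 201, 202 and 265. Flowthrough had 72.3 and 6.23 CPM in aKO 203 and 205, against 47.3 and 52.1 CPM in WT 201 and 202. WT 265 and flowthrough aKO 205 were the low ones: Emcn made 2.89% and 2.19% of the members' summed reads there, against 6.63% to 16.0% in the other 10 libraries. The astrocytes of the same brain 205 held 29.4 CPM.

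Of the transporters, Slco1a4 stood at 113, 92.8, 78.2, 122 and 61.2 TMM-scaled CPM in aKO astrocytes 203, 205, 208, 221 and 222, against 100.2, 65.1 and 59.9 CPM in WT astrocytes 201, 202 and 265. Abcb1a, the drug exporter P-glycoprotein of rodent brain capillaries, ran from 32.2 to 57.1 CPM in aKO astrocytes and from 19.5 to 39.9 CPM in WT astrocytes. Both genotype ranges overlapped for each transporter. Abcb1a has a close paralog, Abcb1b, and an exon of Abcb1b overlaps the annotated gene Gm5106. Reads shared between these genes were not measured, so the values of both paralogs are uncertain. Abcb1b stood at 0.966 to 3.97 CPM in astrocytes and at 6.29 to 9.32 CPM in flowthrough, without overlap.

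**Figure D1:**
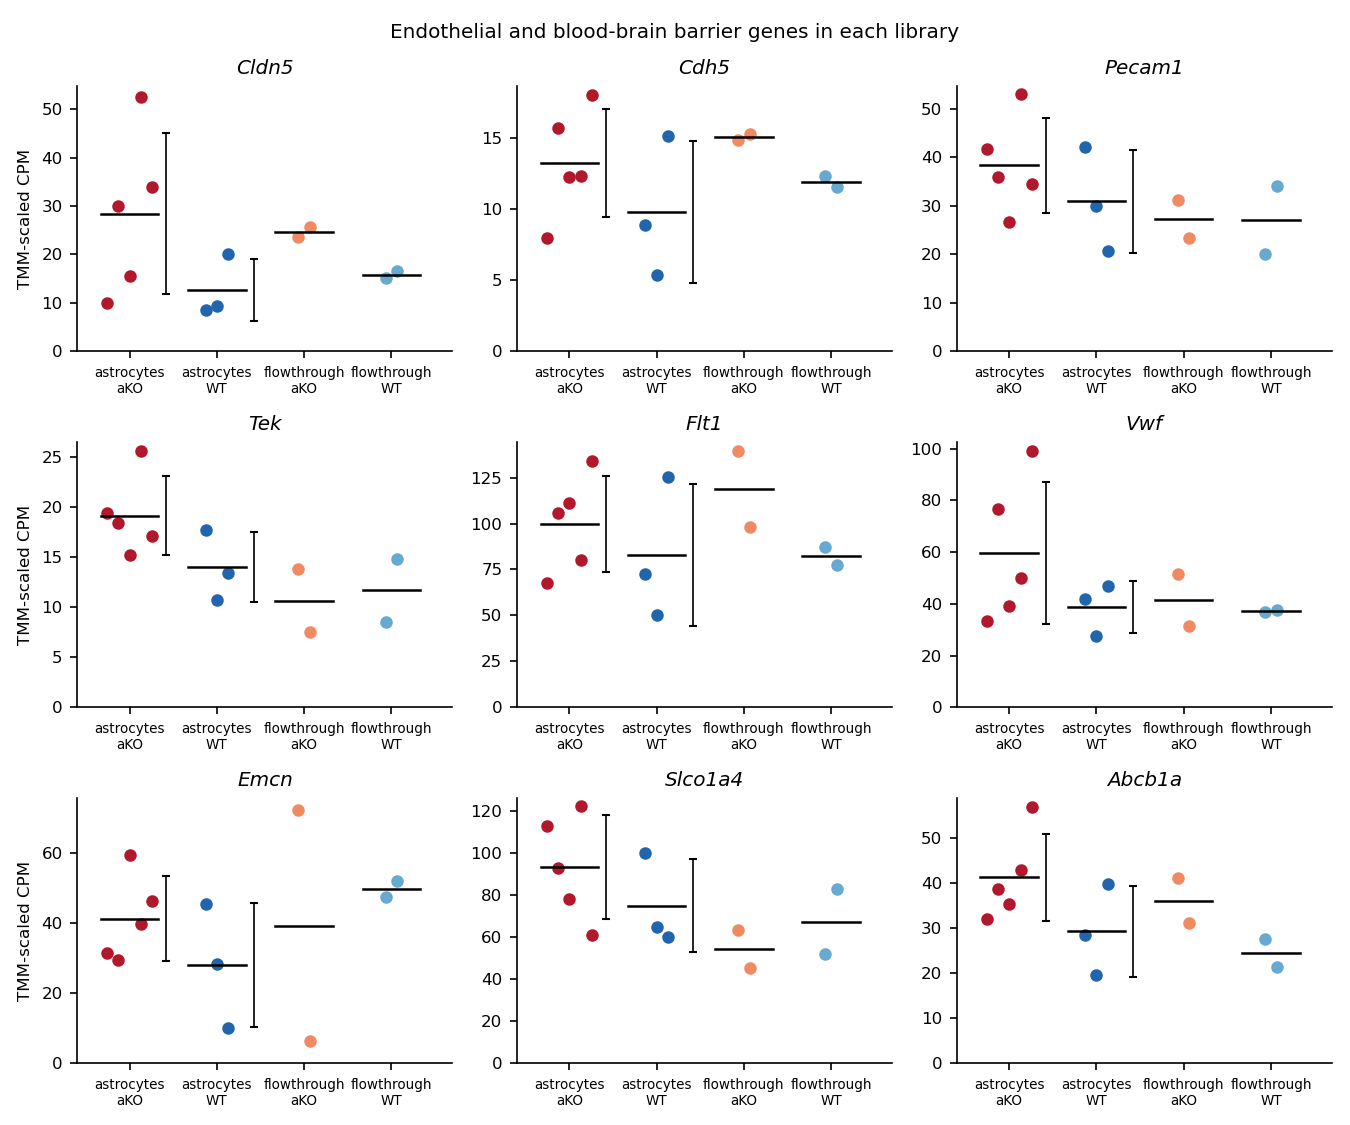
Level of each member in TMM-scaled CPM (linear axis from 0) in every library, by fraction and genotype. Points are libraries, horizontal lines are group means and vertical bars at the side are the SD of the groups of 5 and 3. Emcn is lowest in flowthrough aKO 205 (6.23 CPM) and Cldn5 is highest in astrocytes aKO 221 (52.5 CPM).

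Over the 8 astrocyte libraries the members did not vary as 1 block. Cdh5, Flt1, Abcb1a, Vwf and Cldn5 varied together, with Pearson r between 0.60 and 0.96 for their 10 pairs (median 0.83; log2 TMM-scaled CPM, n = 8 libraries). Pecam1, Tek and Slco1a4 formed a second set, with r between 0.77 and 0.81 for 3 pairs. Between both sets the 15 pairs ran from -0.36 to 0.61 with a median of 0.11, and Emcn had r between -0.13 and 0.47 with the other 8 members. Spearman's rho had a median of 0.86 in the first set, 0.79 in the second and -0.048 between them. These sets were read from the same libraries, so the values describe them and carry no test. The libraries share depth, scaling and tissue, and both genotypes are among them.

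Much of that separation came with 2 libraries. Without aKO 222 and WT 265, an alternative chosen after seeing the data, the median r between both sets was 0.48 over 6 libraries, while it was 0.78 within the first set and 0.90 within the second. Summed reads of the 5 genes of the first set were 3.04 times those of the second in aKO 222 and 2.63 times in WT 265, against 0.871 to 1.81 times in the other 6 astrocyte libraries. In flowthrough this ratio was 2.49 and 2.64 in aKO 203 and 205, against 2.23 and 1.25 in WT 201 and 202. The longest coding transcripts of the second set had GC contents of 50.2% for Pecam1, 47.1% for Tek and 40.3% for Slco1a4, and those of the first set ran from 45.2% for Abcb1a to 60.5% for Cldn5. The part of base composition in the separation was not tested.

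**Figure D2:**
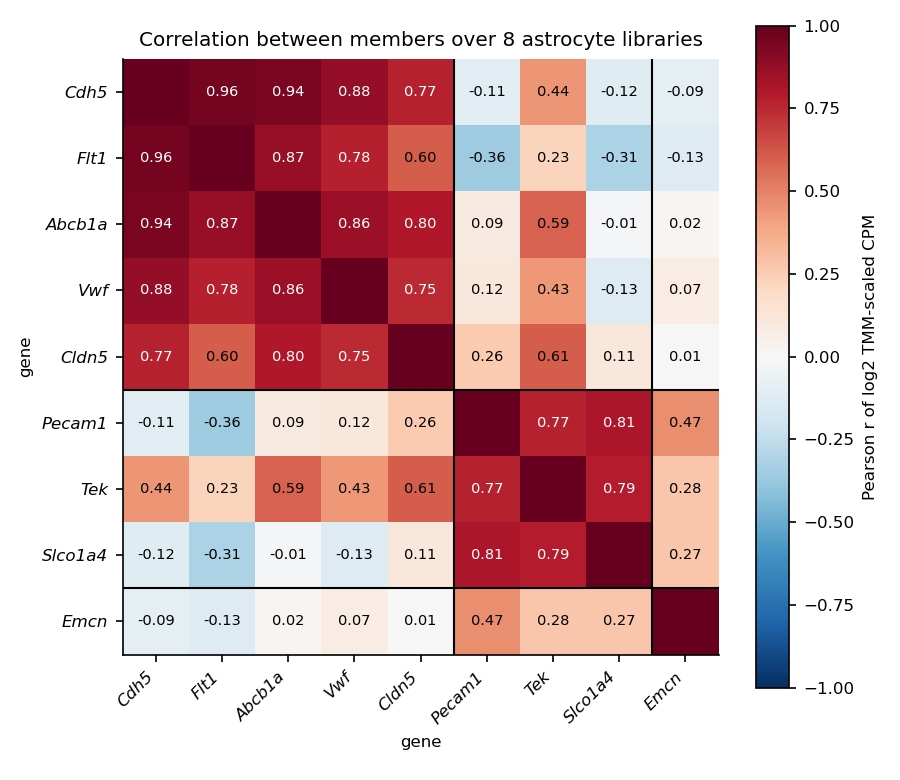
Pearson r of log2 TMM-scaled CPM between each pair of members over the 8 astrocyte libraries, with black lines around the 2 sets and Emcn. The first set (Cdh5, Flt1, Abcb1a, Vwf, Cldn5) holds r from 0.60 to 0.96, the second (Pecam1, Tek, Slco1a4) from 0.77 to 0.81.

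Genes outside the list were ranked by their Pearson r with the mean of the members' standardised log2 levels over the same 8 libraries, among 9108 genes with a mean log2 CPM of at least 3. Among the 10 nearest were Jcad (r = 0.95), Pacsin2 (0.94), Fn1 (0.94), Rce1 (0.93), Mecom (0.92), Fam50a (0.92), Xdh (0.92), Adipor2 (0.92) and Cd93 (0.91). Jcad encodes a protein of endothelial cell junctions and Cd93 an endothelial surface lectin receptor. These 10 are the highest of 9108 values over 8 libraries, a selection that gives high r by itself, and they were not tested. The median over all ranked genes was -0.020. Among the lists, the 12 ranked pan-endothelial genes ran from 0.0068 to 0.89 (median 0.40), the 10 ranked pericyte and smooth muscle genes from 0.18 to 0.90 (median 0.43) and the 12 astrocyte markers from -0.52 to 0.43 (median -0.33). Within the lists, 10 of 15 pan-endothelial genes and 10 of 12 pericyte and smooth muscle genes had a higher r with the first set than with the second. The share over all genes was not counted and the sets were read from the same libraries, so these counts do not set the lists apart.

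The series allows the astrocytes to be set against the cells that passed the beads. Of the 9 members, 0 differed between astrocytes and flowthrough in edgeR's quasi-likelihood test (adjusted p under 0.05 by Benjamini and Hochberg's method), where 3517 of 20637 genes did (17% of all tested, either direction). At an unadjusted threshold of 0.05 the count was also 0, beside 32% of all genes. It was 0 with DESeq2 and with limma voom too, which called 23.8% and 17.4% of the genes they tested. In all, 5 estimates lay above 0 and 4 below, with a median log2 fold change of 0.23 beside 0.073 over all genes. With 1 library left out, that median ran from 0.097 without astrocytes WT 265 to 0.45 without flowthrough aKO 203. Medians over all genes were 0.089 and 0.22 in these fits. Tek had the largest positive estimate: 10.8, 17.4 and 25.6 TMM-scaled CPM as lowest, median and highest of the astrocyte libraries, against 7.47, 11.2 and 14.8 CPM in flowthrough (log2 fold change 0.55, SE 0.30; edgeR adjusted p = 0.214). Emcn had the most negative, at -0.38 (SE 0.49; edgeR adjusted p = 0.627), and it was 0.95 without flowthrough aKO 203 and -0.80 without flowthrough aKO 205.

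The intervals of these estimates, from the fit of 12 libraries without a term for the animal, bound the difference. The 95% interval of the astrocyte over flowthrough ratio ran from 0.541 to 1.70 for Cldn5, from 0.537 to 1.34 for Cdh5, from 0.809 to 1.99 for Pecam1 and from 0.563 to 1.499 for Flt1. It ran from 0.736 to 2.03 for Vwf, from 0.859 to 2.22 for Slco1a4 and from 0.762 to 1.80 for Abcb1a. For Tek it ran from 0.948 to 2.26 and for Emcn from 0.375 to 1.58, and each of these 9 intervals holds 1. Within the 4 animals that gave both fractions, Pecam1, Tek and Slco1a4 were higher in astrocytes in 3 of 4 animals, Vwf and Abcb1a in 2, and Cldn5, Cdh5, Flt1 and Emcn in 1 of 4. Animal 202 was the exception for Pecam1, Tek and Slco1a4, and animal 205 was the only one with higher Cldn5, Cdh5, Flt1 and Emcn in its astrocytes.

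Some lists of other cell types were called in most of their genes between the fractions, and others were not. Of 8 microglia markers, 8 were lower in astrocytes, with a median log2 fold change of -4.22, and their summed level ran from 316 to 571 TMM-scaled CPM in astrocytes and from 6515 to 10550.1 CPM in flowthrough. All 8 leukocyte markers (median -3.89) and all 6 erythrocyte markers (median -3.55) were lower too. Of 12 astrocyte markers, 11 were higher (median 2.499), with a summed level of 3329 to 16748 CPM in astrocytes and 299 to 4974 CPM in flowthrough. Oligodendrocyte markers were higher in 6 of 8 and neuron markers in 4 of 6. Few or no calls fell on fibroblast markers (2 of 8, median 0.73), platelet and megakaryocyte markers (1 of 7, median -0.96), ependymal markers (0 of 8, median -1.11) and choroid plexus epithelium (0 of 8, median -0.57). In the list for fenestrated endothelium (median 0.30) the call on 1 of 4 genes was that of Plpp3. Which cells gave Plpp3 was not tested. Pericyte and smooth muscle markers, which come from the same vessels, had 0 of 12 called, with 8 estimates above 0, a median of 0.19 and summed levels of 782 to 2324 CPM in astrocytes and 330 to 1370 CPM in flowthrough. Members' summed levels overlapped as well, at 392 ± 81.9 CPM in astrocytes (SD, n = 8) and 348 ± 74.3 CPM in flowthrough (SD, n = 4). That ratio of 1.13 was 1.36 with CPM of the deposited totals and 1.42 with mitochondrial genes and Ttr, a choroid plexus transcript, left out of the totals. Except for the platelet and megakaryocyte genes Gp6, Gp1ba and Ppbp, no marker of these lists was at 0 in any library. In bulk samples such as these, fewer cells of a type and less RNA per cell cannot be told apart. The list counts above are edgeR's, and some moved with the tool. DESeq2 called 4 of 8 ependymal, 1 of 8 choroid plexus, 1 of 12 pericyte and smooth muscle and 1 of 6 erythrocyte markers. For the same lists limma voom called 2, 0, 0 and 6.

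**Figure D3:**
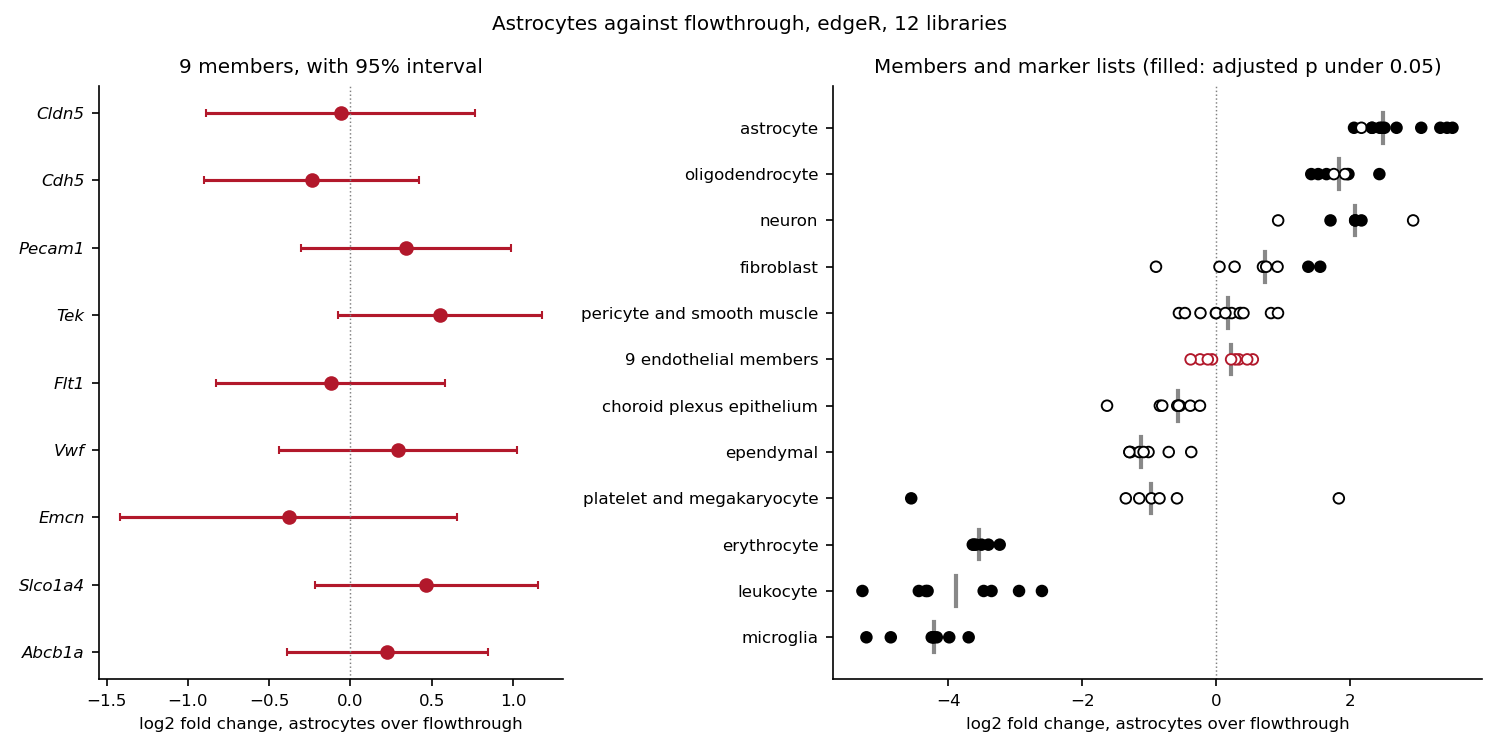
Log2 fold change of astrocytes over flowthrough (edgeR, 12 libraries). Left, the 9 members with 95% intervals, all of which cross 0; right, the members (red) beside marker lists, 1 point per gene, filled where the adjusted p was under 0.05, with grey bars at list medians such as 2.499 for astrocyte and -4.22 for microglia markers.

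Other genes of vessels and barrier were taken from 5 lists, of which 16 of 75 genes (21.3%) were called between astrocytes and flowthrough, 8 higher and 8 lower in astrocytes, beside 17% of all genes. Of the 9 secreted VEGF, angiopoietin, Wnt and norrin ligands in these lists, a group formed after their values were seen and given no test, 5 were called, all higher in astrocytes. Wnt7a, a Wnt ligand that maintains the barrier, had 9.45 to 21.6 TMM-scaled CPM in astrocytes and 0.0981 to 2.60 CPM in flowthrough (log2 fold change 3.22, SE 0.60; edgeR adjusted p = 0.00138). Ndp, which encodes the Frizzled4 ligand norrin, averaged 23.9 ± 14.0 CPM in astrocytes and 4.44 ± 6.23 CPM in flowthrough (log2 2.86, SE 0.86; edgeR adjusted p = 0.0346). Wnt7b followed with 2.35 (SE 0.52), the TIE2 ligand Angpt1 with 2.10 (SE 0.38) and the VEGF receptor ligand Vegfa with 1.75 (SE 0.42). Angpt1 lay at 4.10 to 8.07 CPM in astrocytes and at 0.662 to 1.93 CPM in flowthrough, without overlap. The 4 not called had estimates of 0.56 (SE 0.39) for Vegfc, 0.53 (SE 0.43) for Pgf, 0.23 (SE 0.38) for Angpt2 and 0.025 (SE 0.33) for Vegfb. The retained cells also held more oligodendrocyte and neuron marker signal, with 6 of 8 and 4 of 6 genes called higher. Which of their cells gave these ligands was not tested.

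The called transporters went both ways. Mfsd2a, the lipid carrier that brain endothelium uses to take up docosahexaenoic acid, was higher in astrocytes at 8.61 to 32.5 TMM-scaled CPM, against 3.34 to 9.64 CPM in flowthrough (log2 1.73, SE 0.35; edgeR adjusted p = 0.00263). Tfrc, the transferrin receptor, was also higher, at 1.03 (SE 0.32). Abcb1b was lower in astrocytes, at 2.64 ± 0.972 CPM, against 7.21 ± 1.42 CPM in flowthrough (log2 -1.45, SE 0.36; edgeR adjusted p = 0.0115), while its paralog Abcb1a had an estimate of 0.23 (SE 0.29). The iron exporter Slc40a1 was lower too, at -1.36 (SE 0.35).

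Among junction and adhesion genes, F11r (junctional adhesion molecule A; log2 fold change -2.05, SE 0.41), Icam1 (an adhesion receptor for leukocytes; -1.99, SE 0.40) and Cd34 (a surface sialomucin; -1.14, SE 0.32) were lower in astrocytes. Called in the other lists were the Wnt coreceptor Lrp5 (-1.76, SE 0.47), the TGF-beta coreceptor Eng (-1.42, SE 0.44) and the ETS factor Fli1 (-1.67, SE 0.28), all lower in astrocytes. Flowthrough aKO 205 stood out for Lrp5 and Eng, at 20.3 and 39.2 TMM-scaled CPM. The other flowthrough libraries had 2.62 to 4.36 CPM of Lrp5 and 4.89 to 12.6 CPM of Eng. They overlapped the astrocyte ranges of 0.679 to 4.66 CPM for Lrp5 and 1.39 to 8.53 CPM for Eng. Fli1 had 11.3 to 27.3 TMM-scaled CPM in astrocytes and 47.5 to 89.2 CPM in flowthrough, without overlap, and was the 1 gene called of 15 pan-endothelial ones. F11r, Icam1, Cd34, Eng and Fli1 are also known from blood cells, whose 8 leukocyte markers were all lower in astrocytes at a summed 141 to 572 CPM, against 2107 to 4918 CPM in flowthrough. The 8 microglia markers were all lower as well, at a summed 316 to 571 CPM in astrocytes, against 6515 to 10550.1 CPM in flowthrough. The part of leukocytes or microglia in these 5 calls, or in that of Slc40a1, was not tested.

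The count of 16 moved with the libraries used. A fit that blocked by animal, on the 8 libraries of 4 animals, gave 26, beside 29.5% of all genes. The fit without astrocyte libraries aKO 222 and WT 265 gave 25, beside 24.7%. Those without flowthrough WT 201 or flowthrough aKO 205 gave 10, beside 7.61% without WT 201 and 9.59% without aKO 205. Of the 16 genes, F11r, Icam1, Angpt1, Mfsd2a, Wnt7a, Wnt7b and Fli1 were called in 21 of 21 alternatives, Tfrc in 12 and Eng in 13.

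**Figure D4:**
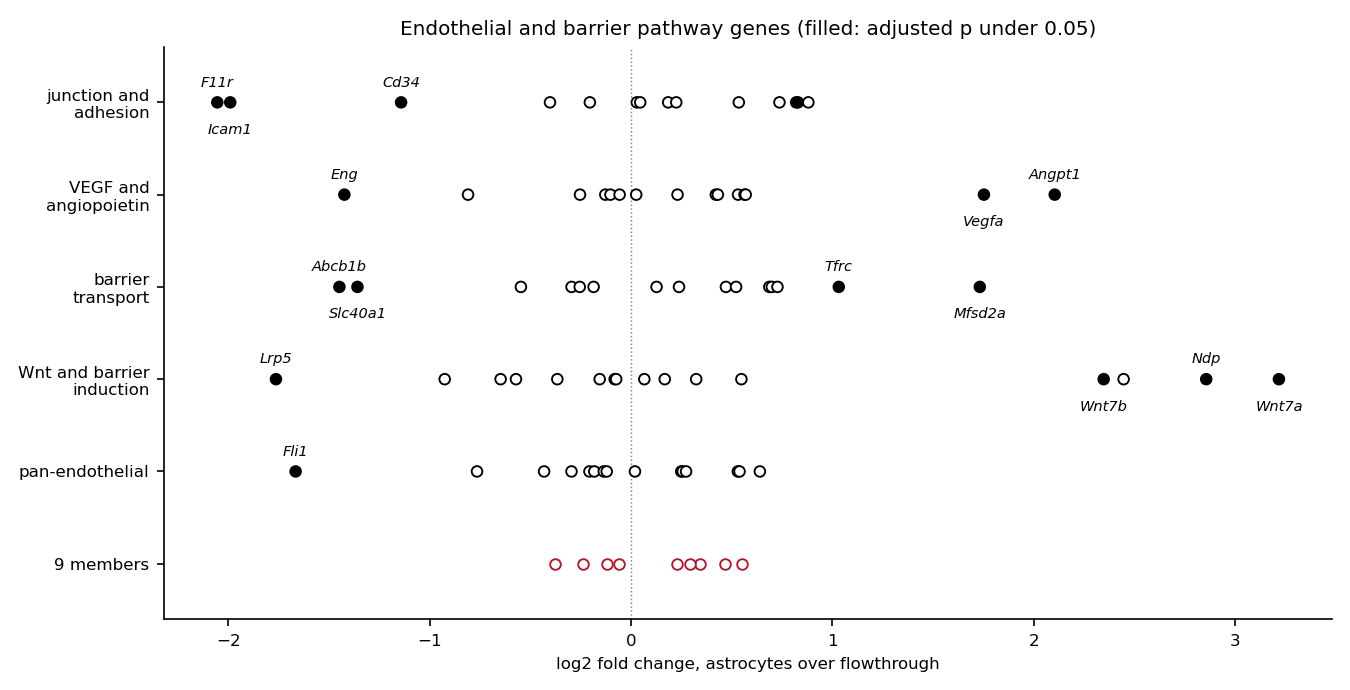
Log2 fold change of astrocytes over flowthrough for 5 lists of vessel and barrier genes and the 9 members (red), 1 point per gene, filled where the edgeR adjusted p was under 0.05 and named where such a change was also at least 1 in size. The members lie between -0.38 and 0.55, while Wnt7a, Ndp, Wnt7b, Angpt1 and Vegfa lie at 1.75 or above.

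The study's own question was how astrocytes without BMAL1 differ from WT astrocytes, and the vessel genes carried in the same libraries were compared the same way. Between aKO and WT astrocytes, 0 of the 9 members passed edgeR's quasi-likelihood test, where 5 of 18950 genes did (0.0264%). Before adjustment, 1 member, Cldn5, lay under 0.05 in the edgeR fit, beside 1.58% of all genes. That count was 0 without WT 202, aKO 205, aKO 221 or aKO 222 and with 202 as aKO, and 3 without WT 265. Neither DESeq2 nor limma voom called any of the 9, beside 0.0984% and 0.0317% of the genes they tested. All 9 estimates lay above 0, between 0.24 and 1.14 on the log2 scale, with a median of 0.45 (1.37-fold) beside 0.024 over all genes tested. The median was 0.28 without WT 202, 0.17 with library 202 counted as aKO, and 0.75 without WT 265. It was 0.33 without aKO 221 and aKO 222, the libraries with high Xist, which no WT library had. Library 202 also set the sign of some members: Flt1 was -0.032 without it, and with it counted as aKO Flt1 was -0.16 and Cdh5 -0.051.

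Cldn5 had the largest difference, averaging 28.4 ± 16.7 TMM-scaled CPM in aKO astrocytes (SD, n = 5) and 12.6 ± 6.39 CPM in WT astrocytes (SD, n = 3). Its log2 fold change was 1.14 (SE 0.51; edgeR adjusted p = 0.9997), a 2.21-fold ratio with a 95% interval from 1.04 to 4.69. It was 0.95 without WT 202, 0.78 with 202 counted as aKO, 0.53 without aKO 221 and aKO 222, the libraries with high Xist, and 1.71 without WT 265. Vwf averaged 59.6 ± 27.6 CPM in aKO astrocytes and 38.7 ± 10.1 CPM in WT astrocytes, a log2 fold change of 0.62 (SE 0.42), and Emcn 41.2 ± 12.2 CPM in aKO astrocytes and 28.0 ± 17.7 CPM in WT astrocytes, 0.59 (SE 0.42). Abcb1a had 0.47 (SE 0.36), Tek 0.45 (SE 0.32), Cdh5 0.41 (SE 0.41), Pecam1 and Slco1a4 0.32 each (SE 0.34 and 0.37) and Flt1 0.24 (SE 0.41). Without WT 202 the estimate was 0.40 for Vwf, 0.59 for Emcn, 0.24 for Abcb1a, 0.28 for Tek, 0.10 for Cdh5, 0.29 for Pecam1 and 0.21 for Slco1a4. With 202 as aKO it was 0.27 for Vwf, 0.50 for Emcn, 0.10 for Abcb1a, 0.17 for Tek, 0.23 for Pecam1 and 0.14 for Slco1a4. No member's genotype groups were free of overlap, as were those of 1.47% of genes tested.

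The members' summed level was 434.5 ± 59.7 TMM-scaled CPM in aKO astrocytes (SD, n = 5) and 321 ± 65.5 CPM in WT astrocytes (SD, n = 3), with ranges of 357 to 501 CPM in aKO and 246 to 366 CPM in WT that overlapped. The ratio of 1.35 was 1.47 with CPM of the deposited totals and 1.41 with mitochondrial genes and Ttr left out. It was 1.21 without WT 202, which left WT libraries of 352 and 366 CPM, and 1.12 with 202 as aKO, both chosen after seeing the data. Estimates of some other cells' markers leaned to 1 side between the genotypes, without a call and with summed levels that overlapped. Estimates were above 0 for 10 of 12 pericyte and smooth muscle markers (median 0.34; summed 782 to 2324 CPM in aKO and 815 to 1156 CPM in WT) and for 8 of 8 oligodendrocyte markers (median 0.86; summed 4009 to 18732 CPM in aKO and 3377 to 13637 CPM in WT). They were below 0 for 8 of 8 ependymal markers (median -0.78; summed 415 to 1504 CPM in aKO and 609.9 to 2407 CPM in WT) and 9 of 12 astrocyte markers (median -0.13; summed 5766 to 12115 CPM in aKO and 3329 to 16748 CPM in WT). With limma voom 7 of 12 astrocyte markers were below 0, with a median of -0.0073. None of the markers in these lists was at 0 in any library, and their part in the members' estimates was not tested.

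None of the 75 genes of the vessel and barrier lists was called between aKO and WT astrocytes by edgeR, DESeq2 or limma voom, and 1 (1.33%) had an unadjusted p under 0.05 in edgeR, beside 1.58% of all genes. That gene was Mfsd2a, with 8.61 to 19.7 TMM-scaled CPM in aKO astrocytes and 25.2 to 32.5 CPM in WT astrocytes, without overlap. Its log2 fold change was -1.10 (SE 0.33; unadjusted p = 0.00474, edgeR adjusted p = 0.9997), and -1.25 to -0.87 over 17 alternatives, with a lowest adjusted p of 0.545 under DESeq2. Estimates were above 0 for 12 of 14 junction and adhesion genes (median 0.17), 12 of 15 VEGF and angiopoietin genes (0.23), 12 of 15 barrier transport genes (0.16) and 11 of 15 pan-endothelial genes (0.31), and for 7 of 16 Wnt and barrier-induction genes (-0.13). Slc16a1, a lactate carrier of brain endothelium, had 0.73 (SE 0.39), Flt4, VEGF receptor 3, had 0.73 (SE 0.48), Mcam, an adhesion molecule of endothelium and smooth muscle, had 0.60 (SE 0.33), and Egfl7, a factor secreted by endothelial cells, had 0.53 (SE 0.35).

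**Figure D5:**
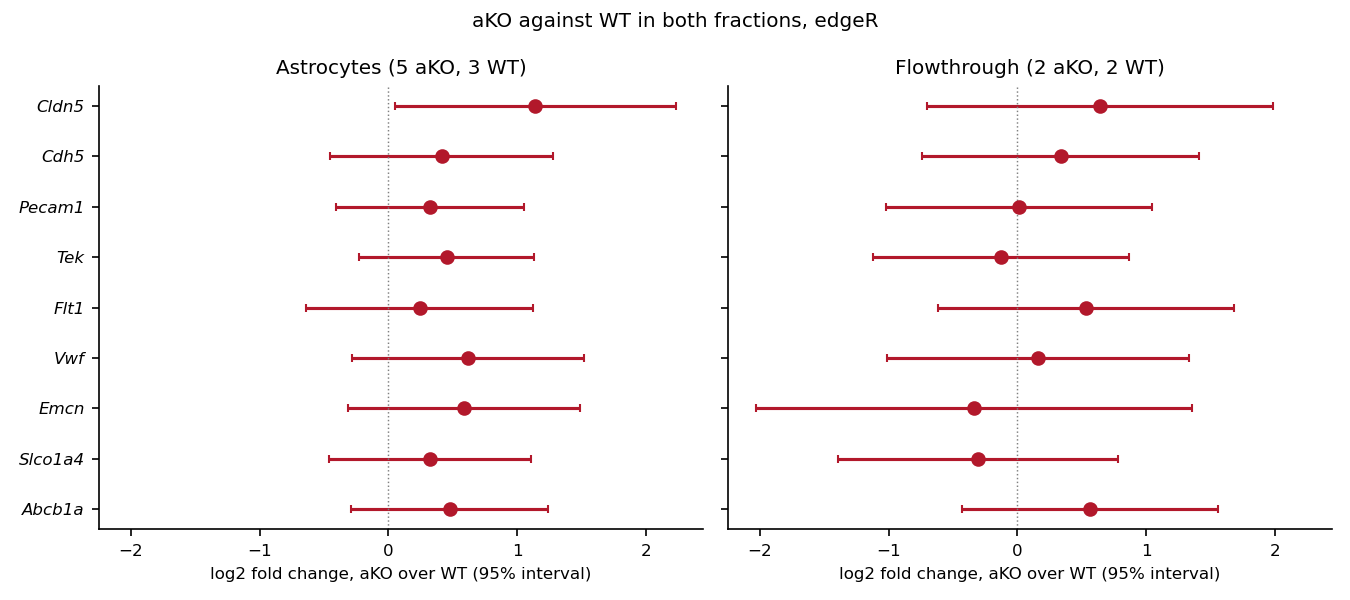
Log2 fold change of aKO over WT with its 95% interval for each member, in astrocytes (left) and flowthrough (right), by edgeR. All 9 astrocyte estimates lie above 0, from 0.24 to 1.14, with 8 of 9 intervals crossing 0, and the flowthrough estimates lie between -0.34 and 0.64.

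In flowthrough, edgeR called 0 of the 9 members between aKO and WT, as it did for all 20637 genes (0%). Before adjustment 0 of the 9 lay under 0.05, beside 3.96% of all genes. DESeq2 and limma voom called 0 of the 9 and 0% of all genes. Estimates ran from -0.34 for Emcn to 0.64 for Cldn5, 6 of them above 0. Cldn5 with 23.6 and 25.6 TMM-scaled CPM in aKO, against 15.1 and 16.5 CPM in WT, was 1 of 4 members whose groups did not overlap, with Cdh5, Flt1 and Abcb1a, all of them higher in aKO. The same held for 20% of all genes tested on this scale. With CPM of the deposited totals Cldn5 stayed apart, while the groups of Cdh5, Flt1 and Abcb1a overlapped. Flt1 had 119 and 74.0 CPM of those totals in aKO 203 and 205, against 79.9 and 80.9 CPM in WT 201 and 202. These 4 genes belong to the first of the sets that varied together in astrocytes. Emcn was 0.46 without flowthrough aKO 205 and -3.04 without flowthrough aKO 203. The summed level was 284 and 452 CPM in aKO, against 307 and 348 CPM in WT, and the ratio of 1.12 turned to 0.931 with CPM of the deposited totals.

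The difference between both genotype effects was not called for any member. It ran from -0.26 for Flt1 to 0.90 for Emcn on the log2 scale, with 7 of 9 above 0, and the lowest edgeR adjusted p was 0.956. edgeR called 0% of all genes, as did DESeq2 and limma voom. At an unadjusted 0.05 the count of members was 0, beside 2.42% of all genes. Cldn5 had 0.53 (SE 0.79), with a 95% interval from -1.13 to 2.19. Flowthrough holds 2 libraries per genotype.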

How the data were processed

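RNA was extracted from bead-isolated astrocytes and from flowthrough of digested mouse brains and amplified with a SMARTer kit, per the labels' protocols. The deposited tables give a read count per Ensembl gene with the CPM and RPKM that the authors computed from it. The submitters' processing notes name STAR 2.5.1a, featureCounts 1.4.6-p5 of Subread, bcl2fastq and the mouse build GRCm38. The strand setting and annotation release are missing from these notes, so antisense reads may be included. Symbols came from GENCODE for 40254 of 41388 identifiers.

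Groups follow the titles. Tests ran on the deposited counts in edgeR 4.0.16 under R 4.3.3 (robust quasi-likelihood test, TMM scaling, filterByExpr with minimum count 10 and minimum total 15). Two-sided p-values were adjusted across every gene tested after Benjamini and Hochberg, and "called" means an adjusted p under 0.05. The astrocyte comparison used 8 libraries, and the others are contrasts of 1 fit of 4 groups to 12 libraries. Astrocytes against flowthrough weighted both genotypes equally. Printed levels are TMM-scaled CPM from the counts, except where the deposited RPKM or CPM of the deposited totals is named. Title numbers were taken to name animals, which the labels do not state outright, and p-values measure the spread between these libraries, which may be technical where that reading is wrong. On simulated counts with known changes the tests missed nearly all smaller changes and most larger ones. The test of aKO against WT flowthrough missed all changes of both sizes. A count of 0 called therefore does not show equal levels.

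The members and gene lists were chosen with earlier results of these data known. Named beyond the members are up to 4 genes of the smallest p in each pathway list and up to 3 in each marker list, the 10 genes nearest to the members, Abcb1b and Arntl, and some genes under this rule are not reported here. The alternatives tried were limma 3.58.1 voom with sample weights, DESeq2 1.42.0, its size factors within edgeR, no count filter, other sets of libraries in the fit, each library left out, library 202 as aKO, mitochondrial genes and Ttr left out, and the animal as a block.

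A number shared by an astrocyte and a flowthrough library was taken as 1 animal, so numbers pair the fractions. Across genes, the correlation of the paired libraries' deviations from their groups' means was 0.0823 in animal 201, 0.424 in 202, 0.166 in 203 and 0.404 in 205.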

Additional observations from a re-analysis of the deposited data

Results flagged for a closer look

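Of 19 sets of astrocyte or flowthrough values searched for a sample far from its group, 1 held one, and chance flags about 1 in 20. Abcb1a made 11.4% of the members' summed reads in astrocytes of aKO 222, against 8.74% to 9.02% in the other 4 aKO astrocyte libraries. WT 265 had 11.3%.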

How the results depend on the processing

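No member was called in any comparison under any alternative that was run, with any tool, and the counts of members called stayed at 0 when each library was left out. The replicate block on the 8 libraries of 4 animals raised the count of pathway-list genes called between astrocytes and flowthrough to 26, against 16 in the fit of 12 libraries and 17 for the same 8 libraries without the block, and the calls over all genes to 5951 of 20189, against 3517 of 20637 and, without the block, 3562. The counts of members called stayed at 0 with the block. Leaving out astrocyte libraries aKO 222 and WT 265 gave 25, and leaving out each library gave 10 to 18. The cause of these shifts was not tested.

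Some log2 fold changes of uncalled genes changed sign. Between aKO and WT astrocytes, counting library 202 as aKO gave -0.051 for Cdh5, -0.16 for Flt1, 0.059 for Pgf and -0.066 for Adgrf5, and Axin2 was 0.097 without aKO 222 and WT 265. With each library left out, Flt1 ran from -0.032 to 0.75 and Axin2 from -0.74 to 0.16. In flowthrough, Pecam1 (0.0086) was -0.068 without a count filter, -0.043 without astrocytes aKO 222 and WT 265, -0.022 without mitochondrial genes and Ttr and -0.14 with only the 4 flowthrough libraries. Over left-out libraries Pecam1 ran from -0.40 to 0.44, Tek from -0.69 to 0.33, Vwf from -0.29 to 0.39, Emcn from -3.04 to 0.46 and Slco1a4 from -0.67 to 0.069.

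Between astrocytes and flowthrough, Emcn was 0.084 with limma voom and 0.034 with the replicate block, and Abcb1a was -0.011 with the block and -0.0015 on the same 8 libraries without it. Over left-out libraries Emcn ran from -0.80 to 0.95, Cldn5 from -0.30 to 0.050 and Flt1 from -0.32 to 0.013. For the difference between both genotype effects, Cdh5 was -0.35 with library 202 as aKO. Flt1 was 0.11 without aKO 222 and WT 265, 0.046 with the replicate block and 0.048 without it on the same 8 libraries. Abcb1a was 0.0065 without a count filter, 0.13 without aKO 222 and WT 265, 0.087 with the block and 0.070 without it on the same 8 libraries. Over left-out libraries Cdh5 ran from -0.20 to 0.62, Pecam1 from -0.14 to 0.71, Flt1 from -0.52 to 0.23 and Abcb1a from -0.29 to 0.27. With 2 flowthrough libraries per genotype, a left-out library leaves 1, whose spread is taken from the other groups.

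Depth does not limit detection of the members, which had at least 155 reads in each library.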
